A study of Rattus norvegicus with 4 samples.

Results

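The genes of the main enzymes that remove superoxide and hydrogen peroxide were followed in rat H9C2 cells after PAGln, set against control cells. They were the 6 peroxiredoxins Prdx1 to Prdx6, the 3 superoxide dismutases Sod1 to Sod3 and catalase, Cat. Each was taken by its gene symbol, and the 10 symbols matched 10 of 33778 gene identifiers. No symbol was shared by a second locus, so summing loci by symbol left their FPKM as deposited. FPKM is the number of reads per kilobase of gene, scaled by sequencing depth, a measure on which levels of different genes can be compared.

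H9C2 is a cell line from embryonic rat heart, labelled as cardiac myocytes. The PAGln group was 2 libraries of cells given 100 µM PAGln for 48 h, and the control group was 2 libraries of cells without it. PAGln is phenylacetylglutamine, a conjugate of glutamine with phenylacetic acid, a product of gut bacteria. The labels give differing numbers of repeats and do not say whether libraries came from separate cultures, so p-values measure how these libraries vary, and part of that variation may be technical.

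Recovered reads numbered 13507110 and 13585802 in the PAGln libraries and 14934592 and 14984712 in the control libraries. Of 13 cardiomyocyte markers, 2 averaged 1 FPKM or more, troponin T Tnnt2 (mean 157 FPKM) and phospholamban Pln (2.47 FPKM). The other 11, among them Myh6, Actc1 and Ryr2, lay under it, whereas 6 of 8 skeletal myoblast markers reached it. Red blood cells are rich in peroxiredoxin 2 and catalase, and 1 of 10 erythroid markers reached that average (Ahsp, 2.84 FPKM). The erythroid markers summed to 3.11 and 4.93 FPKM in the PAGln libraries and 3.48 and 4.58 FPKM in the control libraries. The globin genes Hba-a1, Hba-a2, Hbb and Hbb-b1 were at 0 in every library, and Hba-a3 averaged 0.369 FPKM. Of the macrophage and leukocyte markers 1 of 9 reached it (Cd14, 15.9 FPKM). Of the endothelial markers 0 of 7 did, with Vwf just under it at 0.987 FPKM.

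Superoxide dismutases turn superoxide into hydrogen peroxide and oxygen. Peroxiredoxins and catalase then remove the peroxide, the peroxiredoxins through a reactive cysteine that is mostly reduced again by thioredoxin, and catalase through a haem group. The enzymes are divided among cell compartments, and heart muscle, which makes superoxide in its many mitochondria, depends on the mitochondrial ones. Several of the genes are known targets of NRF2, a transcription factor activated by oxidants.

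NRF2 binds DNA at antioxidant response elements, for which the core TGACNNNGC was searched on both strands of the RefSeq promoter windows of build GRCr8, from 250 bases before to 50 bases after each gene's start. Of the 10 genes, 8 matched a window by symbol, and Prdx6 and Sod3 did not. The core was found in 4 of the 8, Prdx1, Prdx4, Prdx5 and Sod2, and in 12.06% of all 33469 windows. It lay wholly upstream of the start in Prdx1 and Sod2, whose stretches are shown because they let the windows that hold a known regulator's core be set beside the levels that follow. Capitals mark the core, which reads on the opposite strand in both. The Prdx1 stretch is chr5:135383755-135383795 on the plus strand and the Sod2 stretch is chr1:50050179-50050219 on the minus strand, each printed 5′ to 3′ along the gene.
Prdx1: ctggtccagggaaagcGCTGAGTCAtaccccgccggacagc
Sod2: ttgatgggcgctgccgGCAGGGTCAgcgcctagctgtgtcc
A match describes letters in the window and is no evidence of binding. The levels of Prdx1 and Sod2 are given below with those of the other genes.

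The 10 genes spanned a wide range of levels. Averaged over the 4 libraries, Prdx2 had 371 FPKM, Sod1 301 FPKM, Prdx1 274 FPKM, Prdx5 204 FPKM, Prdx4 158 FPKM and Prdx3 69.8 FPKM. Prdx6 followed with 39.5 FPKM, Sod2 with 27.0 FPKM, Cat with 20.6 FPKM and Sod3 with 0.202 FPKM. Of the 12334 genes that averaged at least 1 FPKM, Prdx2 ranked 161, Sod1 197 and Prdx1 226, while Cat ranked 4199. Neighbours in the order whose ranges over the 4 libraries overlapped were Prdx2 and Sod1, Sod1 and Prdx1, Prdx5 and Prdx4, and Sod2 and Cat. Prdx2 was nevertheless above Sod1 within each of the 4 libraries, whereas Sod1 was above Prdx1 in 3 of them and Sod2 above Cat in 3. The 10 genes summed to 1523 and 1360 FPKM in the PAGln libraries and 1383 and 1596 FPKM in the control libraries.

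**Figure D1:**
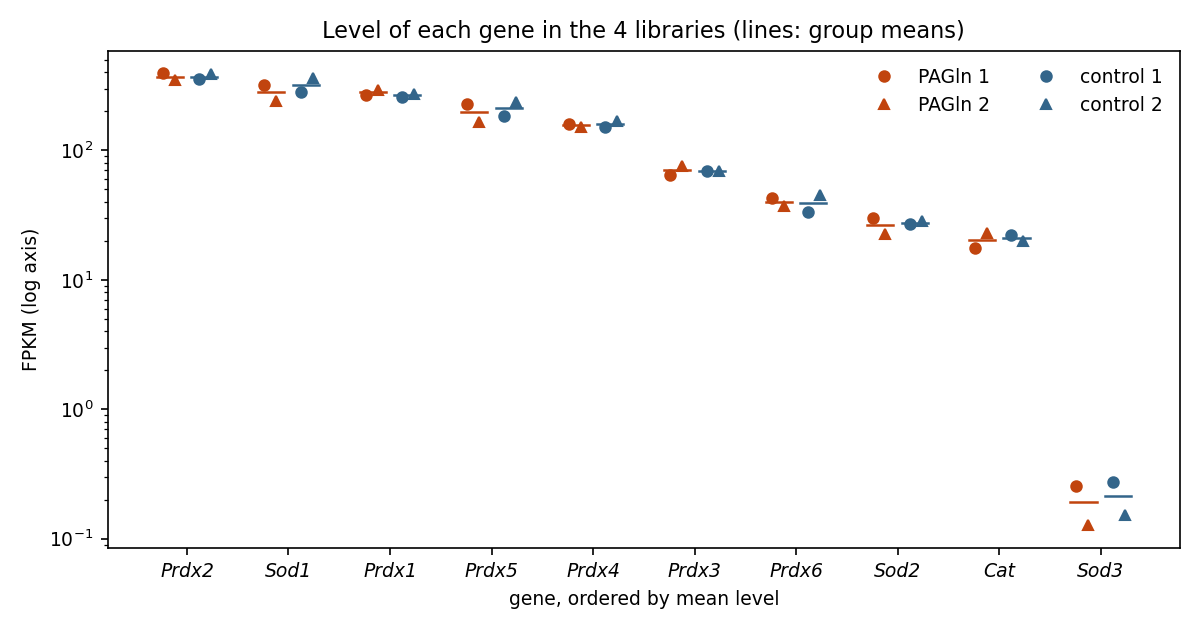
FPKM of each gene (log axis) in the PAGln libraries (orange) and the control libraries (blue), with circles for replicate 1, triangles for replicate 2 and short lines for group means (n = 2 each). Levels run from 371 FPKM for Prdx2 to 0.202 FPKM for Sod3 on average, and neither group lies wholly above the other for any gene.

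The question put by the design is whether transcripts of these enzymes differ in abundance after 48 h with the metabolite. None of the 9 genes that could be tested passed the threshold, and the values of the groups overlapped for all 10. The log2 fold changes ran from -0.20 for Sod1 to 0.081 for Prdx1, with 3 genes higher and 6 lower in the PAGln libraries. In limma on log2(FPKM + 1), 0 of the 9 had an adjusted p under 0.05 (0% of all 12334 tested genes did) and 0 had an unadjusted p under 0.05 (2.12% of all did, or 262 genes). limma's voom on the recovered reads also called 0 genes, with 134 at an unadjusted p under 0.05. For 0 of the 10 genes both PAGln libraries lay on the same side of both control libraries, which was so for 23.1% of all tested genes. The median log2 fold change of the 9 was -0.032, against 0.0021 over all tested genes.

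The 95% confidence intervals set what these libraries could show. The lowest limit among the 9 genes was -0.70 (Sod1) and the highest 0.48 (Prdx6) on the log2 scale, so that a group difference beyond 1.63-fold lower or 1.39-fold higher lay outside every one of the 9 intervals. An exact permutation test of 2 against 2 libraries cannot give a two-sided p below 0.333. In these bulk samples fewer cells expressing a gene and less of its RNA per cell cannot be told apart.

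**Figure D2:**
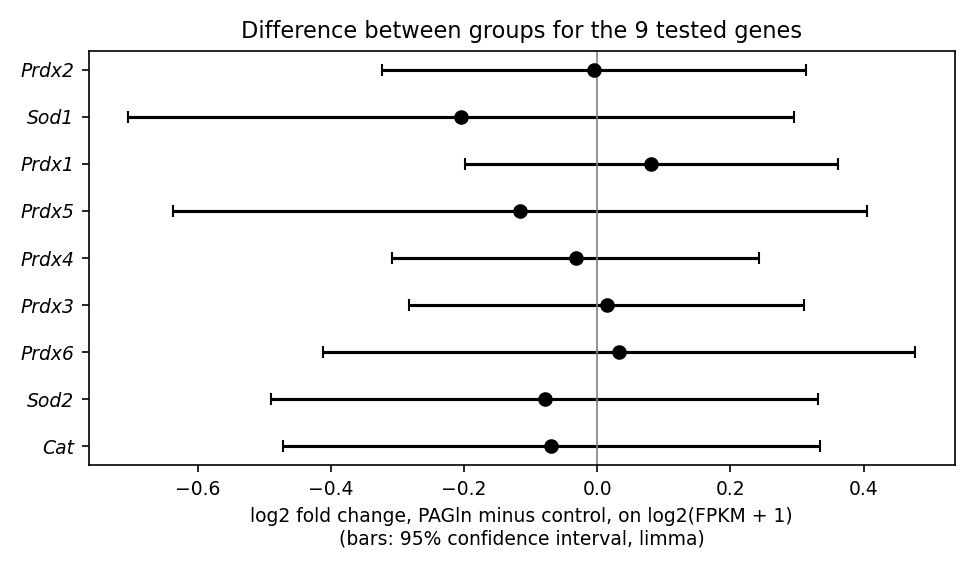
Log2 fold change of each of the 9 tested genes, PAGln minus control, on log2(FPKM + 1), as points with bars for the 95% confidence interval from limma (n = 2 libraries each). Every bar crosses 0, and the longest reach -0.70 for Sod1 and 0.48 for Prdx6.

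For the abundant cytosolic Prdx1 and Prdx2, the SD within a group was at most 8.78% of the mean. Prdx1, on chromosome 5 from 135536413 to 135551990 in the deposited tables, had 268 and 295 FPKM in the PAGln libraries, against 259 and 272 FPKM in the control libraries. PAGln 2 was its highest library and PAGln 1 lay between the control libraries. The difference was 0.081 on the log2 scale (SE 0.11, 95% confidence interval -0.20 to 0.36), with a limma adjusted p of 1.00. Prdx2, on chromosome 19 from 26084903 to 26090094, had 393 and 347 FPKM in the PAGln libraries, against 353 and 390 FPKM in the control libraries. Its PAGln libraries were the highest and the lowest of the 4, and its log2 fold change of -0.0053 (SE 0.13) was 0.020 with quantile normalization. Prdx1 and Prdx2 are close relatives that work as dimers, each with a peroxide-reactive and a resolving cysteine. The ratio of Prdx1 to Prdx2, which does not depend on scaling between libraries, was 0.682 and 0.849 in the PAGln libraries and 0.735 and 0.698 in the control libraries.

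Prdx6, a peroxiredoxin with a single reactive cysteine that is recycled through glutathione and that also has phospholipase activity, was far less abundant than Prdx1 and Prdx2. It lies on chromosome 13 from 79077033 to 79088127. It had 42.7 and 36.9 FPKM in the PAGln libraries, against 33.4 and 45.1 FPKM in the control libraries. The control libraries were thus its lowest and its highest, and the log2 fold change was 0.033 (SE 0.17).

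Among peroxiredoxins of the organelles, Prdx3 of the mitochondrial matrix had nearly equal group means. Located on chromosome 1 from 282238773 to 282251257, it had 64.7 and 75.8 FPKM in the PAGln libraries, against 69.8 and 68.8 FPKM in the control libraries. The PAGln libraries lay below and above both controls, and the log2 fold change was 0.015 (SE 0.12). Prdx4, which works in the endoplasmic reticulum and couples peroxide removal to disulfide formation, lies on chromosome X from 43497763 to 43512991. Its 160 and 153 FPKM in the PAGln libraries stood between the 151 and 169 FPKM of the control libraries. The log2 fold change of Prdx4 was -0.032 (SE 0.11).

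Prdx5, found in mitochondria, peroxisomes and the cytosol, had the largest SE of the log2 fold change among the peroxiredoxins. On chromosome 1 from 222164462 to 222167447, it had 228 and 165 FPKM in the PAGln libraries, against 186 and 238 FPKM in the control libraries. PAGln 2 was its lowest library and control 2 its highest. The log2 fold change of Prdx5, -0.12 (SE 0.20, 95% confidence interval -0.64 to 0.41), was 0.11 without PAGln 2 and 0.063 without control 2. The ratio of Prdx3 to Prdx5 was 0.284 and 0.458 in the PAGln libraries and 0.376 and 0.289 in the control libraries.

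Of the dismutases, Sod1 had the lowest log2 fold change of the 9 genes. Sod1 is the copper and zinc enzyme of the cytosol and the mitochondrial intermembrane space, and its gene lies on chromosome 11 from 30363280 to 30368862. It had 319 and 241 FPKM in the PAGln libraries, against 281 and 363 FPKM in the control libraries. PAGln 1 stood between the controls, PAGln 2 below both. The group means were 280 ± 54.8 FPKM with PAGln and 322 ± 58.0 FPKM in control (SD, n = 2 each), a log2 fold change of -0.20 (SE 0.20, 95% confidence interval -0.70 to 0.29, limma adjusted p = 1.00). Without PAGln 2 the log2 fold change of Sod1 was -0.0047 and without PAGln 1 it was -0.41.

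Sod2, the manganese enzyme of the mitochondrial matrix, lies on chromosome 1 from 47914759 to 47921587. It had 30.2 and 22.6 FPKM in the PAGln libraries, against 26.8 and 28.6 FPKM in the control libraries. As for Prdx3, the PAGln libraries lay outside the controls on both sides, but with PAGln 1 the higher. The log2 fold change was -0.079 (SE 0.16), and it was 0.12 without PAGln 2. The 2 genes of the matrix, Prdx3 and Sod2, together had 94.9 and 98.4 FPKM in the PAGln libraries and 96.6 and 97.4 FPKM in the control libraries. The ratio of Sod1 to Sod2 was 10.6 and 10.7 in the PAGln libraries and 10.5 and 12.7 in the control libraries.

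Sod3, the secreted dismutase that binds to the extracellular matrix, was close to undetected. Its locus is on chromosome 14 from 60958592 to 60964324. It gave 6 and 3 reads with PAGln, against 7 and 4 reads in control. On the FPKM scale this was 0.256 (95% exact Poisson interval 0.0940 to 0.558) and 0.127 (0.0262 to 0.371) in the PAGln libraries. The control libraries had 0.272 (0.109 to 0.560) and 0.153 (0.0418 to 0.393). The intervals, which cover counting error only, all overlap, and Sod3 was not tested because its mean lay under 1 FPKM.

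Cat, the haem enzyme of peroxisomes, was the lowest of the tested genes. Its gene spans 93379874 to 93412058 on chromosome 3, and it had 17.5 and 22.9 FPKM in the PAGln libraries, against 22.0 and 20.1 FPKM in the control libraries. The PAGln libraries held both its lowest and its highest value. The log2 fold change of -0.069 (SE 0.16, 95% confidence interval -0.47 to 0.33) became 0.12 without PAGln 1.

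The share of each gene in the summed FPKM does not depend on scaling between libraries. Prdx2 made up 25.8% and 25.5% of the summed FPKM of the 10 genes in the PAGln libraries, against 25.5% and 24.5% in the control libraries. Sod1 made up 20.9% and 17.7% in the PAGln libraries and 20.4% and 22.8% in the control libraries. Prdx1 made up 17.6% and 21.7% in the PAGln libraries and 18.8% and 17.1% in the control libraries. The shares overlapped between groups for all of the 10 genes but Prdx2. Its lower PAGln share, 25.54%, was next to its higher control share, 25.51%. On FPKM, a different measure, both PAGln libraries lay on the same side of both control libraries for 23.1% of all tested genes. The difference in share, PAGln minus control, was -2.23 percentage points for Sod1, and -0.63 points without PAGln 2 and -3.83 points without PAGln 1. For Prdx1 it was 1.73 points, and -0.29 points without PAGln 2 and 3.76 points without PAGln 1.

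The SD within a group was more than 2 times that of counting in 14 of the 18 pairs of a tested gene and a group. For Sod1 the SD was 19.6% of the mean in PAGln and 18.0% in control libraries, where counting alone gives 2.0% and 1.78%. For Prdx5 it was 22.3% and 17.5%, where counting gives 2.14% and 1.96%. Prdx4 in the PAGln libraries, at 3.03%, was nearer to the 2.28% of counting, and Prdx3 in the control libraries, at 0.996%, was below its 2.55%. For Sod3 it was 47.6% and 39.4%, close to the 47.1% and 42.6% of counting.

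Of the 9 tested genes, 6 had their highest value in PAGln 1 or control 2, namely Prdx2, Prdx4, Prdx5, Prdx6, Sod1 and Sod2, and 3 in PAGln 2 or control 1, namely Prdx1, Prdx3 and Cat. Of all tested genes 51.7% had their highest value in PAGln 1 or control 2. The median deviation from the 4-library mean of the 2152 tested genes of up to 1000 bases was 0.050 in PAGln 1, -0.061 in PAGln 2, -0.053 in control 1 and 0.080 in control 2 on the log2 scale. For the 6216 tested genes of 1001 to 3000 bases it was 0.020, -0.032, -0.022 and 0.038 in that order. For the 3966 tested genes over 3000 bases the values were -0.031, 0.057, 0.046 and -0.070 in the same order of libraries. Sod1, with 656 bases the shortest of the 10, deviated by 0.098 in PAGln 1, -0.30 in PAGln 2, -0.081 in control 1 and 0.29 in control 2. Prdx5, of 816 bases, deviated by 0.17, -0.29, -0.12 and 0.24 in that order. Cat, with 2539 bases the longest, deviated by -0.22, 0.15, 0.097 and -0.029, in each library with the opposite sign to the median of the genes of 1001 to 3000 bases, its own length class. Prdx1, of 889 bases, did not follow the other short genes, at -0.027, 0.11, -0.076 and -0.0052. Prdx6 and Sod2, at 2030 and 2063 bases, also had their higher values in PAGln 1 and control 2. With each library centred on its curve over gene length, a setting chosen after seeing the data, the SE of the log2 fold change was 0.14 for Sod1 and 0.15 for Prdx5, and the Sod1 log2 fold change was -0.17. The SE was lower than without centring for 7 of the 9 genes and higher for Prdx1 (0.114, against 0.110 without) and Prdx3 (0.130, against 0.117). Each curve was fitted to the same deviations that it centred, so a lower SE is no test of gene length. The part of gene length in the values of single genes was not tested further.

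**Figure D3:**
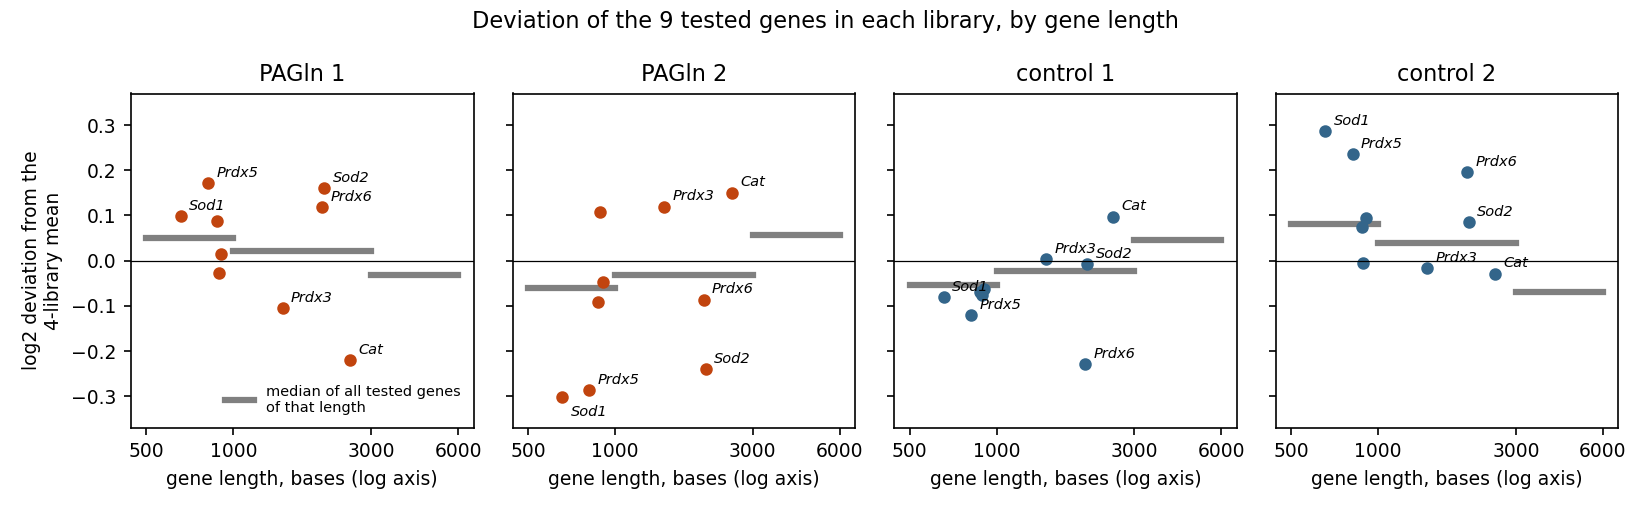
Log2 deviation of the 9 tested genes from their 4-library mean against gene length (log axis), 1 panel per library, with PAGln in orange and control in blue. Grey bars are medians of all tested genes of up to 1000, 1001 to 3000 and over 3000 bases, and Sod1 and Prdx5 lie on the same side of 0 as the bar for short genes in each of the 4 panels.

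The partners of these enzymes were described from 7 lists, each gene of which was tested if it averaged at least 1 FPKM. Both PAGln libraries lay on the same side of both control libraries for 4 of 15 tested genes of the thioredoxin system, 2 of 15 of the glutathione list, 2 of 11 of the metal carriers, 7 of 22 of the peroxisomal list, 3 of 16 for NADPH, 2 of 8 of the superoxide and peroxide sources and 2 of 18 regulators, beside 23.1% of all tested genes. In the thioredoxin system, 7 of 15 tested genes were higher and 8 lower with PAGln, and none passed the threshold (median log2 fold change -0.011). Txn1, the thioredoxin that reduces the cytosolic peroxiredoxins, had 363 and 325 FPKM in the PAGln libraries, against 327 and 339 FPKM in the control libraries. Txnrd1, the reductase that recharges it, averaged 65.7 ± 1.93 FPKM with PAGln and 65.4 ± 1.73 FPKM in control (SD, n = 2 each). The disulfide isomerases Pdia3 and P4hb of the endoplasmic reticulum, the compartment of Prdx4, were the most abundant of the list. Pdia3 had 660.0 and 576 FPKM in the PAGln libraries, against 585 and 595 FPKM in the control libraries, and P4hb had 645 and 603 FPKM in the PAGln libraries, against 618 and 661 FPKM in the control libraries. The smallest p-values of the list belonged to Txnrd3, Ero1b and Nxn. The thioredoxin reductase Txnrd3 had 3.86 and 3.31 FPKM in the PAGln libraries, both under the 4.13 and 4.34 FPKM of the control libraries. The oxidase Ero1b, which drives disulfide formation, had 4.38 and 4.41 FPKM in the PAGln libraries, against 4.17 and 3.30 FPKM in the control libraries. Nxn, the thioredoxin-like nucleoredoxin, had 83.9 and 70.6 FPKM in the PAGln libraries, against 78.7 and 95.5 FPKM in the control libraries.

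Among glutathione peroxidases and genes of the glutathione cycle, 15 of 18 were abundant enough to be tested. Of these, 7 were higher and 8 lower, with none past the threshold (median log2 fold change -0.012). The peroxidases Gpx2, Gpx3 and Gpx4 were not tested, and Gpx4 averaged 0.252 FPKM. Gpx4 gave 11 and 5 reads in the PAGln libraries and 5 and 4 reads in the control libraries. How multiply mapping reads were treated is not given, and whether mapping or annotation lowered this value was not tested. The value therefore does not show that the cells lack Gpx4 RNA. Gpx1, a selenium-containing peroxidase that shares the peroxide with the peroxiredoxins, had 188 and 162 FPKM in the PAGln libraries, against 174 and 191 FPKM in the control libraries. The most abundant of the list was Gstp1, a glutathione transferase, with 562 and 482 FPKM in the PAGln libraries, against 522 and 612 FPKM in the control libraries. Slc3a2, a partner of the cystine importer, had 234 and 205 FPKM in the PAGln libraries, against 191 and 218 FPKM in the control libraries. Gclc, the catalytic subunit of the enzyme that starts glutathione synthesis, had 30.5 and 35.1 FPKM in the PAGln libraries, against 31.3 and 27.4 FPKM in the control libraries, a log2 fold change of 0.15 (SE 0.13). Gclm, its modifier subunit, had 20.3 and 21.7 FPKM in the PAGln libraries, against 19.2 and 18.6 FPKM in the control libraries, a log2 fold change of 0.15 (SE 0.11). Gss, the enzyme of the next step, had 17.4 and 16.7 FPKM in the PAGln libraries, against 16.9 and 22.2 FPKM in the control libraries, with a log2 fold change of -0.18 (SE 0.16) that was 0.0079 without control 2. For Gclc the value was 0.055 without PAGln 2 and 0.059 without control 2.

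Of the metal chaperones and carriers that serve the dismutases, 4 of 11 were higher and 7 lower, with none past the threshold (median log2 fold change -0.047). Ccs, the chaperone that loads copper into Sod1, had 40.7 and 29.1 FPKM in the PAGln libraries, against 40.2 and 55.4 FPKM in the control libraries. PAGln 2 was its lowest library and control 2 its highest, as for Sod1 and Prdx5. The same held for Nxn, Txnrd3, P4hb, Gpx1, Gstp1, Gss, Pex10, Tkt, Mthfd1, Cyba, Keap1 and Maff among the partner genes named here. The share of all tested genes with this pattern was not counted. The log2 fold change of Ccs was -0.44 (SE 0.22, 95% confidence interval -1.01 to 0.13), with a limma adjusted p of 1.00. It was -0.21 without PAGln 2, -0.22 without control 2, -0.68 without PAGln 1 and -0.67 without control 1. Slc31a1, the copper importer of the cell membrane, had 42.3 and 46.1 FPKM in the PAGln libraries, each under the 50.9 and 48.2 FPKM of the control libraries (log2 fold change -0.16, SE 0.10). Slc39a14, a zinc and manganese importer, had 15.0 and 14.9 FPKM in the PAGln libraries, against 14.5 and 11.6 FPKM in the control libraries.

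The list of peroxisomal import and oxidases, which concerns the compartment of catalase, held the largest difference. Of its 22 tested genes 6 were higher and 16 lower, with none past the threshold (median log2 fold change -0.042). Pex5, the receptor that carries catalase and most other matrix proteins into peroxisomes, had 3.13 and 3.41 FPKM in the PAGln libraries, against 5.22 and 9.56 FPKM in the control libraries. These values came from 139 and 153 reads in the PAGln libraries and 255 and 473 reads in the control libraries. The difference of Pex5 was -0.92 on the log2 scale (SE 0.28, 95% confidence interval -1.63 to -0.22, limma unadjusted p = 0.0197 and adjusted p = 1.00), and it was -0.54 without control 2 and -1.31 without control 1. Pex7, the receptor for a different targeting signal, had 4.18 and 4.06 FPKM in the PAGln libraries, both above the 2.68 and 3.16 FPKM of the control libraries (log2 fold change 0.39, SE 0.17). Pex10, a ring-finger protein of the machinery that recycles Pex5, had 4.04 and 3.23 FPKM in the PAGln libraries, against 4.47 and 4.92 FPKM in the control libraries.

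Genes that supply NADPH to the reductases had 7 of 16 higher and 9 lower (median log2 fold change -0.012). The malic enzyme Me1 had 51.8 and 53.1 FPKM in the PAGln libraries, both above the 50.1 and 45.7 FPKM of the control libraries, with a log2 fold change of 0.13 (SE 0.10) that was 0.064 without control 2. The transketolase Tkt of the pentose phosphate pathway had 142 and 120 FPKM in the PAGln libraries, against 131 and 151 FPKM in the control libraries (log2 fold change -0.11, SE 0.14). Mthfd1, a folate enzyme, had 18.0 and 16.1 FPKM in the PAGln libraries, both under the 18.6 and 19.0 FPKM of the control libraries (log2 fold change -0.13, SE 0.12). Of the genes that make superoxide or peroxide, 8 of 20 were abundant enough to be tested, with 1 higher and 7 lower (median log2 fold change -0.051). Xdh, xanthine oxidoreductase, had 31.4 and 33.7 FPKM in the PAGln libraries, against 53.7 and 35.8 FPKM in the control libraries, a log2 fold change of -0.42 (SE 0.20) that was -0.13 without control 1 and -0.71 without control 2. Nox1, a catalytic subunit of NADPH oxidase, had 2.78 and 2.22 FPKM in the PAGln libraries, against 3.94 and 3.01 FPKM in the control libraries. Cyba, a subunit shared by several NADPH oxidases, had 123 and 86.9 FPKM in the PAGln libraries, against 98.4 and 126 FPKM in the control libraries. None of the 3 genes passed the threshold.

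Of the regulators of these enzymes, 10 of 18 were higher and 8 lower (median log2 fold change 0.011), with none past the threshold. Nfe2l2, the gene of NRF2, averaged 50.9 ± 3.45 FPKM with PAGln and 52.0 ± 4.15 FPKM in control (SD, n = 2 each). Keap1, which holds NRF2 for degradation, had 14.5 and 11.9 FPKM in the PAGln libraries, against 14.0 and 17.7 FPKM in the control libraries, a log2 fold change of -0.24 (SE 0.17) that was -0.086 without control 2, -0.11 without PAGln 2 and -0.40 without control 1. Maff, a small Maf protein that pairs with NRF2 on DNA, had 15.2 and 12.5 FPKM in the PAGln libraries, against 13.5 and 17.9 FPKM in the control libraries. Sirt3, a mitochondrial deacetylase that acts on the Sod2 protein, had 5.76 and 6.25 FPKM in the PAGln libraries, against 6.60 and 7.09 FPKM in the control libraries. Of all tested genes 49.4% were lower with PAGln.

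**Figure D4:**
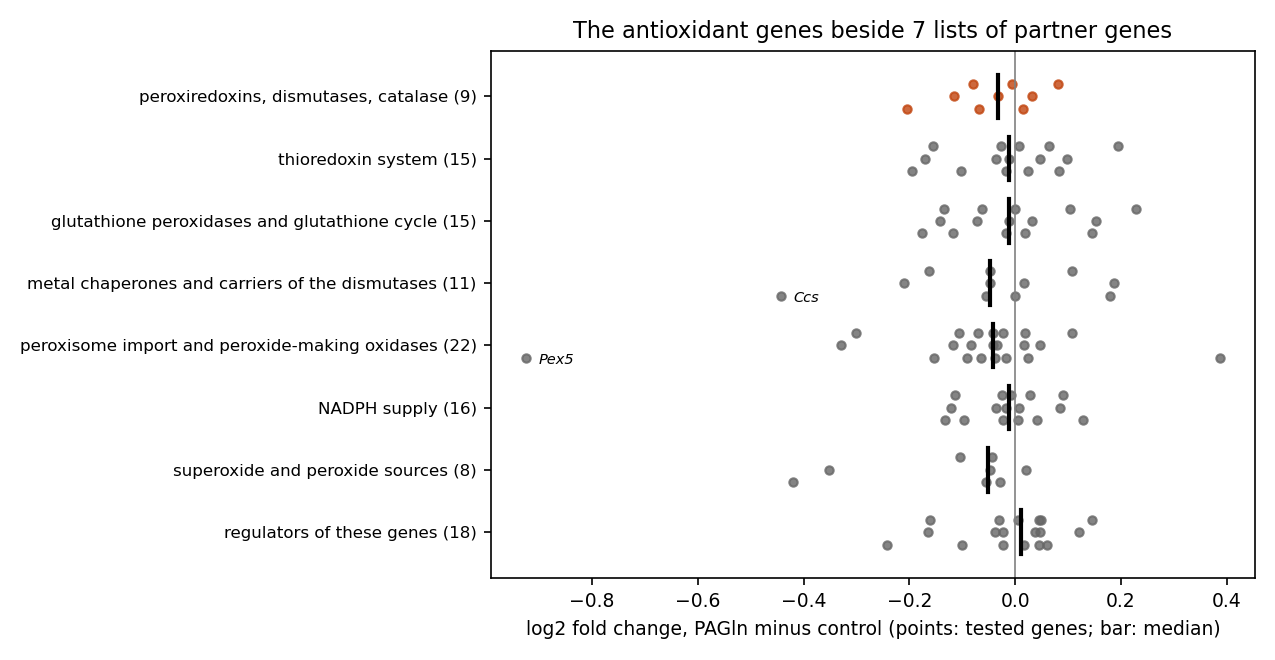
Log2 fold change (PAGln minus control) of the 9 tested enzymes in orange and of the tested genes of the 7 partner lists in grey, with black bars for medians and the number of genes in parentheses. Pex5 at -0.92 and Ccs at -0.44 lie farthest to the left, and the medians lie between -0.051 and 0.011.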

How the data were processed

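RNA was taken up in Trizol and made into TruSeq libraries, per the labels' protocols. The deposited FPKM were made by the authors, 1 table per library. Bowtie 0.12.2 and build hg38, a human build, are named in the submitters' processing notes, while the identifiers are rat Ensembl ones. Not given in the sources used here are the build of the printed gene coordinates, the counting tool, its use of strand and how it treated multiply mapping reads. FPKM times gene length was a whole multiple of 1 step per library for 100% of non-zero values (within 0.01 of a read), which gave the recovered reads if the smallest step is 1 read.

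Groups came from the treatment label. limma 3.58.1 in R 4.3.3 was fitted across all 12334 genes averaging at least 1 FPKM, on log2(FPKM + 1), with a variance trend, two-sided, with Benjamini-Hochberg adjustment and a threshold of 0.05. This scale understates the change of low genes. The fit was tested on simulated data with independent noise drawn from its own variance model. Deviations shared by many genes of a library, such as those by gene length, were not simulated. The genes and lists were chosen with earlier results of these data known, and the test of summed loci used the same fit. Of 192 list entries (pathway lists and markers), 181 matched by symbol, 1 through RefSeq synonyms and 10 not. All 10 enzymes were named, and of each pathway list up to 3 genes with the smallest p, with the 3 most abundant of the thioredoxin and glutathione lists. Txnrd1 and Nfe2l2 were added to these with their values known. Libraries of a group differed by more than counting noise (15.2 chi-square units per gene in PAGln, 16.8 in control), so none was merged with another as a repeat deposit. This does not show that they came from separate cultures.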

Additional observations from a re-analysis of the deposited data

How the results depend on the processing

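None of the 9 tested enzymes passed the threshold in any of the 15 alternatives, singly or with loci summed. The count over all genes was 0 in the main test, 7 with a replicate block, 1 with centring over gene length and 0 with voom, and 1 to 13 when leaving out each library in turn. The labels state no paired design, so the block was run as an alternative and not as the main test. Same-numbered libraries had opposed deviations (correlation -0.284 across 12334 genes). With 2 libraries per group this cannot settle whether they were paired. A crossed pairing, chosen after seeing the data like the centring, called 0 genes (899 had an unadjusted p under 0.05). Directions of small differences depended on single libraries. Leaving out each library gave log2 fold changes of -0.095 to 0.084 for Prdx2, -0.098 to 0.13 for Prdx3, -0.11 to 0.046 for Prdx4, -0.34 to 0.11 for Prdx5, -0.18 to 0.24 for Prdx6, -0.28 to 0.12 for Sod2 and -0.25 to 0.12 for Cat. Prdx2 was also reversed by quantile normalization (0.020) and length centring (0.026). Among partner genes the ranges were -0.033 to 0.13 for Txn1, -0.033 to 0.16 for Pdia3, -0.084 to 0.013 for P4hb, -0.17 to 0.046 for Gpx1, -0.36 to 0.0079 for Gss, -0.23 to 0.0080 for Tkt, -0.35 to 0.14 for Cyba and -0.35 to 0.030 for Maff. Prdx1 (0.014 to 0.15) and Sod1 (-0.41 to -0.0047) kept their sign.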
